A study of Mus musculus with 18 samples.

Results

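The genes described here are 9 genes of the interferon response and of RNA sensing, namely Isg15, Irf1, Irf7, Irf9, Stat2, Ifih1, Ddx58, Ifit1 and Bst2, taken by symbol from the deposited gene table. All 9 were found among 21859 protein-coding genes, and 7 of them also had a PROMPT (promoter upstream transcript) among 32253 listed. Nascent RNA was measured by TT-seq, in which RNA made during a 5 min pulse of 4-thiouridine (4sU) is purified and sequenced, in E14 murine embryonic stem (ES) cells grown with LIF and inhibitors of GSK3 and MEK. The 18 libraries were 3 each from untagged cells, SPT16-AID clone 1 and clone 2, treated for 24 h with 0.1% ethanol (EtOH) or with the auxin 3-indole acetic acid (IAA) after 48 h of undisturbed growth. All cells, the untagged ones included, carried integrated osTIR1, and in the 2 clones SPT16, a subunit of the histone chaperone FACT, carried a mini-AID and V5 tag so that IAA leads to its degradation. The concentrations differ between sources, with IAA at 500 nM and 4sU at 500 mM in the labels but 500 µM for each in the study's methods.

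The values used are the authors' baseMean, a count normalized for library size and averaged over libraries, and so a single number per gene that pools depleted with control cells. They carry no spread and no group, so neither a difference between IAA and EtOH nor an order of neighbouring genes could be tested. The baseMean values summed to 55.9 M normalized reads per library over all genes. The 8 markers of pluripotent cells examined had a median of 1772 normalized reads per kb of gene span, against 1.16 for 6 fibroblast, 0.437 for 10 leukocyte and 2.49 for 4 endothelial markers. Itgam of the leukocyte markers was listed at 0 and Ptprc was at 0.0505 per kb, while Cd68 was at 415 per kb. The highest fibroblast marker was Pdgfrb at 23.8 per kb, and the highest endothelial marker was Vwf at 12.2 per kb.

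Cells detect foreign or misplaced double-stranded RNA through RIG-I, encoded by Ddx58, and MDA5, encoded by Ifih1, which signal through MAVS to the kinases that activate IRF3 and IRF7 and so induce the interferon genes. Secreted interferon then acts through its receptors and Janus kinases on a complex that holds STAT2 and IRF9 and binds the interferon-stimulated response element (ISRE) in promoters of effectors such as Isg15, Ifit1 and Bst2. Interferon gamma acts mainly through the gamma-activated site (GAS), of which the Irf1 promoter is a well-known case. Pluripotent cells are known for making little interferon and for a weak response to it.

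The promoter letters bear on these roles and are shown first. RefSeq promoter windows on GRCm38.p6, from 250 bases before to 50 after the start, were found for all 9 members. The windows were searched on each strand for the ISRE as GAAANNGAAA, for the related element with 1 free base as GAAANGAAA, and for the GAS as TTCNNNGAA. Stretches of 150 bases are given for the 6 members with a match before the start, 5′ to 3′ on the gene's strand and ending at the base before the start, except that of Stat2, which runs from base -250 to base -101. Capitals mark the matches, which run into each other where they overlap.
Isg15, chr4:156200819-156200968, minus strand: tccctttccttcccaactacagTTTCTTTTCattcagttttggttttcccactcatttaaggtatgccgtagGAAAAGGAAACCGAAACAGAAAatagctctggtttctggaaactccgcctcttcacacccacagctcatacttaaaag
Ifit1, chr19:34640739-34640888, plus strand: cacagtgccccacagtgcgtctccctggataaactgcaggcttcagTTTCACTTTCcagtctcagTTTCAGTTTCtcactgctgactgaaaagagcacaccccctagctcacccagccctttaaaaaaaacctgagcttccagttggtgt
Bst2, chr8:71537473-71537622, minus strand: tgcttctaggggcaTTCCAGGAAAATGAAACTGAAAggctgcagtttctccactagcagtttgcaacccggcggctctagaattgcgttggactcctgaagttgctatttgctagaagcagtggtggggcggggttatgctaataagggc
Ddx58, chr4:40239826-40239975, minus strand: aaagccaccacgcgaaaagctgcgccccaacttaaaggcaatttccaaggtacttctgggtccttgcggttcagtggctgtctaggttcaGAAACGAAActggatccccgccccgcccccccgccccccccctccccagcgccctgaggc
Stat2, chr10:128270248-128270397, plus strand: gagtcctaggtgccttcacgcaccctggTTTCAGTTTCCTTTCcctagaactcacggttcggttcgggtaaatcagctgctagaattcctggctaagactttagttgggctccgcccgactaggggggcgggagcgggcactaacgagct
Irf1, chr11:53769864-53770013, plus strand: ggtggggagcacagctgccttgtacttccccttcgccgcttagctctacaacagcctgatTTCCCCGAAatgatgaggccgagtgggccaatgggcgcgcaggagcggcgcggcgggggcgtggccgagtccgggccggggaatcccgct

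The ISRE letters were found in the windows of 6 of the 9 members, Isg15, Ifit1, Bst2, Stat2, Ddx58 and Ifih1, whereas 3.43% of all 32817 promoter windows held them. Isg15 held 3 overlapping matches from base -78, and Bst2 held 2 overlapping matches from base -130. Ifit1 held 2 separate matches on the other strand, at bases -104 and -85, and Stat2 held 1 at base -222. In Ddx58 and Ifih1, the sensors, the match lay after the start, at bases 3 and 33, so that 4 members held the letters before the start. The element with 1 free base was found in 3 members, at base -60 in Ddx58, base -128 in Isg15 and base -216 in Stat2, where it overlaps the ISRE, and in 3.17% of all windows. The GAS letters were found in Irf1, at base -90, and in Bst2, at base -136 where they overlap its ISRE, and in 8.29% of all windows. No match to any of these 3 patterns was found in the windows of Irf7 and Irf9. Irf1 and Irf9 have a second listed start, and those windows held none either. The first RefSeq window of Irf9 begins at base 55603735 of chromosome 14, after the Gencode start of the gene at 55603571. Bases before that Gencode start were therefore not searched. These matches describe letters and were not tested for binding. Because the members were chosen as genes of the interferon response and of RNA sensing, their count is not independent of the motif.

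**Figure D1:**
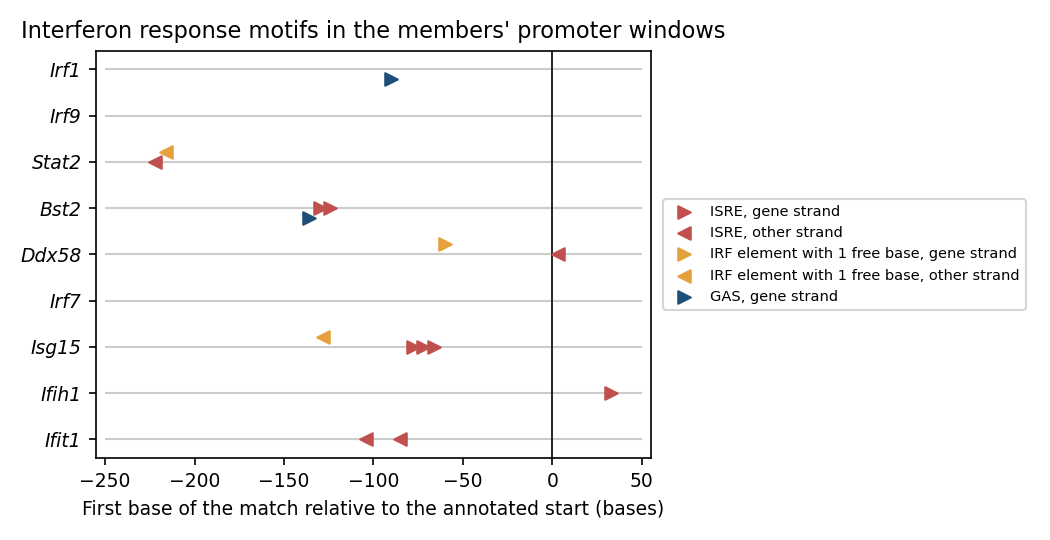
Positions of the ISRE (red), the element with 1 free base (orange) and the GAS (blue) in the promoter windows of the 9 members, in bases relative to the annotated start (vertical line), with arrowheads pointing right for the gene's strand and left for the other strand. Members are ordered by transcription level from the highest at the top, and 6 of the 9 hold an ISRE, of which those of Ddx58 and Ifih1 lie after the start.

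CpG content also differed among the windows. At the outermost RefSeq start, the 5 members that lay above the median gene per kb of span held 32 CpGs in Irf1, 22 in Stat2, 15 in Ddx58, 11 in Bst2 and 9 in Irf9. The other 4 held 14 in Ifih1, 7 in Irf7, 6 in Isg15 and 4 in Ifit1, against a median of 7 over all windows. The windows at the second starts held 43 CpGs in Irf1 and 1 in Irf9, the latter fewer than in any window of the 4 lower members, so the CpG count of Irf9 depends on the start taken. The outermost window of Irf1 lay above 90.5% and that of Ifit1 above 31.4% of all windows in CpG count. Whether CpG count goes with level was not tested. The grouping also depends on the measure, since by baseMean as deposited Bst2 lay above only 40.8% of genes with reads.

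Of the 4 transcription factors among the members, 3 held the highest levels per kb of span of the 9. Irf1, a factor induced by interferon gamma, had a baseMean of 1871, or 224 normalized reads per kb of gene span, above 89.0% of genes with reads. In these bulk libraries a low level in every cell and a higher level in few cells cannot be told apart. Irf9, the DNA-binding partner of STAT2, had a baseMean of 875 (136 per kb, above 78.2% of genes). Stat2 had a baseMean of 2850 (128 per kb, above 76.9%). Irf7, the factor that amplifies induction of interferon genes, stood apart from these with a baseMean of 15.9, or 4.22 per kb, above 37.3% of genes.

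The sensors were unequal. Ddx58 had a baseMean of 1434 (39.8 per kb, above 56.4% of genes with reads). Ifih1, its relative in the same helicase family, had a baseMean of 16.3 over a gene of 50.5 kb, or 0.322 per kb, above 20.4% of genes. Per kb of exon the levels were 203 for Ddx58 and 1.99 for Ifih1, so that Ddx58 was the higher of the sensors by either length.

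The effectors were spread the widest. Bst2, which encodes tetherin, a membrane protein that holds budding virus at the cell surface, had a baseMean of 153 (47.8 per kb, above 58.8% of genes with reads). Isg15, a ubiquitin-like modifier, had a baseMean of 3.81 (2.73 per kb, above 34.4%). Ifit1, which binds viral RNA lacking the host cap modification, had the lowest level, with a baseMean of 1.19 (0.130 per kb, above 14.8%).

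**Figure D2:**
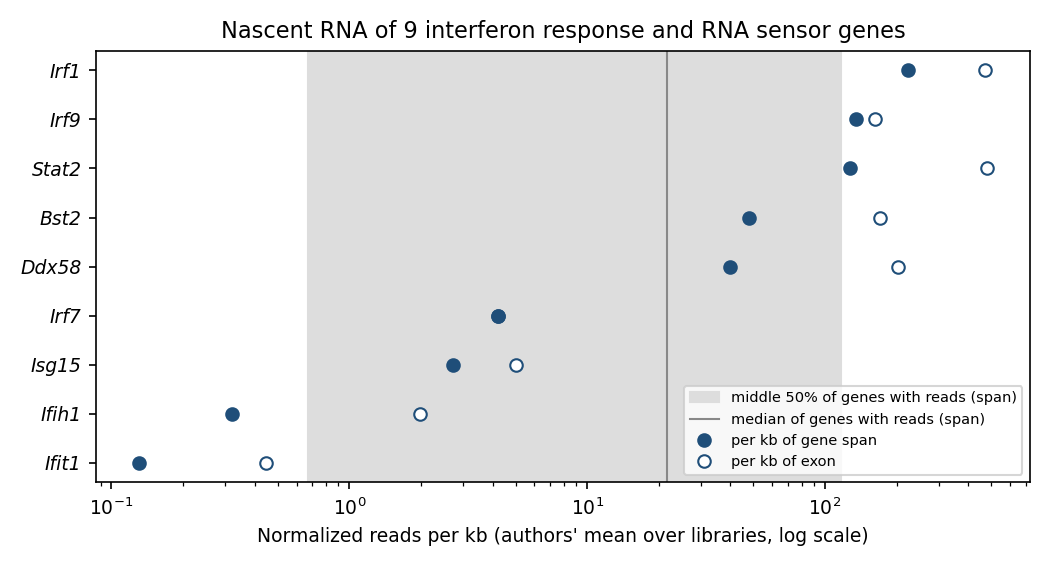
Levels of the 9 members in normalized reads per kb (log scale), as the authors' mean over libraries divided by gene span (filled) or summed exon length (open), with no error bars since the values are pooled. The grey band covers the middle 50% of genes with reads, from 0.669 to 117 per kb of span, around a median of 21.7. By the filled points 5 members lie above the median and 4 below it. The band and median are per kb of span, so the open points cannot be read against them.

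The members thus ran over a 1720-fold range from Irf1 to Ifit1 in level per kb of span, with 2 wide gaps in the order, of 9.43-fold from Ddx58 to Irf7 and of 8.49-fold from Isg15 to Ifih1. The other neighbours were from 1.06-fold (Irf9 over Stat2) to 2.68-fold (Stat2 over Bst2) apart, with 1.20-fold for Bst2 over Ddx58, 1.54-fold for Irf7 over Isg15, 1.65-fold for Irf1 over Irf9 and 2.48-fold for Ifih1 over Ifit1. With no spread to judge them, none of these neighbours can be ordered by a test. Per kb of exon Stat2 (481) was above Irf1 (471) and Ddx58 (203) above Bst2 (169) and Irf9 (163), while Irf7 (4.22), Isg15 (5.04), Ifih1 (1.99) and Ifit1 (0.448) remained the 4 lowest. The summed exons of Irf7 cover its whole span, because the annotation holds transcripts that keep introns, so its value was the same by either length.

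The reads behind the low values are few. The lowest gene baseMean above 0 was 0.0216, shared by 102 genes, which is taken as 1 read in the deepest library. By that unit the baseMean of Ifit1 stands for at most 55 reads over all 18 libraries, that of Isg15 for at most 176, that of Irf7 for at most 737 and that of Ifih1 for at most 752. These bounds cover counting only, and at so few reads the levels of Ifit1 and Isg15 cannot be set finely against those of other low genes.

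The members were checked for neighbouring genes that could share their reads. On GRCm38 (Gencode vM21) Rnf31, a ubiquitin ligase gene on chromosome 14 from 55591708 to 55603693, overlaps Irf9 (55603571 to 55610030) by 123 bp on the same strand, and Rnf31 was at 131 normalized reads per kb of span beside 136 for Irf9. The part of Rnf31 in the reads of Irf9 was not tested. Stat2, on chromosome 10 from 128270559 to 128292849, starts 405 bp after the end of Apof on the same strand, which was at 84.6 per kb. No gene overlapped the span of any other member on the same strand. On the opposite strand Phrf1 overlapped Irf7 by 45 bp, and Gm17334, which is not in the gene table, overlapped Irf1 by 907 bp.

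PROMPTs are short-lived transcripts made antisense to a gene from just upstream of its start, and were counted by the authors within 1 kb of it. Of the 7 members with a PROMPT, 6 had a PROMPT baseMean of at least 1 and 2 of at least 10, beside 33.7% and 11.5% of all PROMPTs. Among PROMPTs of genes within 2-fold of the member in level per kb of span, the share at 1 or more was larger for the members of higher level, at 73.8% for Irf9, 73.4% for Stat2, 61.2% for Bst2 and 59.3% for Ddx58. It was 33.9% for Irf7, 30.1% for Isg15 and 13.6% for Ifih1. Irf1 and Ifit1 had no listed PROMPT. The window upstream of Ifit1 overlaps Ifit1bl2 by 873 bp on the strand of the PROMPT. Taken from the outermost start in Gencode vM21, the window of Irf9 lies inside Rnf31 and that of Stat2 overlaps Apof, each of which is transcribed on the strand opposite to the PROMPT.

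The PROMPT of Irf7 stood out, with a baseMean of 71.5, above 97.8% of PROMPTs with reads. It was 16.9 times the level of the Irf7 gene per kb of span, and above 99.3% of the 1642 PROMPTs of genes within 2-fold of Irf7 in level, whose median was 0.429. The window, on chromosome 7 from 141266482 to 141267481 on the plus strand, lies 3731 bp beyond the annotated end of Phrf1, which is transcribed towards it on the same strand with a baseMean of 9777, or 288 per kb. The part of Phrf1 in the reads of this window was not tested.

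The other PROMPTs were lower. Irf9 had a PROMPT baseMean of 17.9, Bst2 of 7.44, Isg15 of 3.74, Stat2 of 2.75, Ddx58 of 1.55 and Ifih1 of 0.360. Set against PROMPTs of genes within 2-fold of the same level, that of Isg15 was above 86.6%, that of Irf9 above 80.5%, that of Bst2 above 77.0% and that of Ifih1 above 75.7%. Those of Ddx58 (above 48.0%) and Stat2 (above 42.8%) lay near the middle of theirs. The Ifih1 PROMPT stands for at most 13 reads over all libraries.

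Per kb, the PROMPT exceeded its gene in 3 of the 7 members, Irf7, Isg15 (1.37 times) and Ifih1 (1.12 times), while 12.7% of 16615 genes paired with a PROMPT showed this. Among the 12535 of these genes with a baseMean of at least 10, which include Irf7 and Ifih1 but not Isg15, the share was 5.70%. The share among genes of like level was not computed. In the other 4 the PROMPT was 0.156 of the gene for Bst2, 0.132 for Irf9, 0.0389 for Ddx58 and 0.0215 for Stat2, against a median of 0.0452 over all pairs. The 3 were 3 of the 4 lowest members by gene level, and per kb of exon only Irf7 remained above 1. The gene and PROMPT tables were normalized separately, and their lowest values above 0 differ 1.23-fold. With PROMPTs rescaled by that factor, the ratio was 13.7 for Irf7, 1.11 for Isg15 and 0.906 for Ifih1. The factor rests on the lowest values alone, and pooled values cannot show whether it holds for every library.

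**Figure D3:**
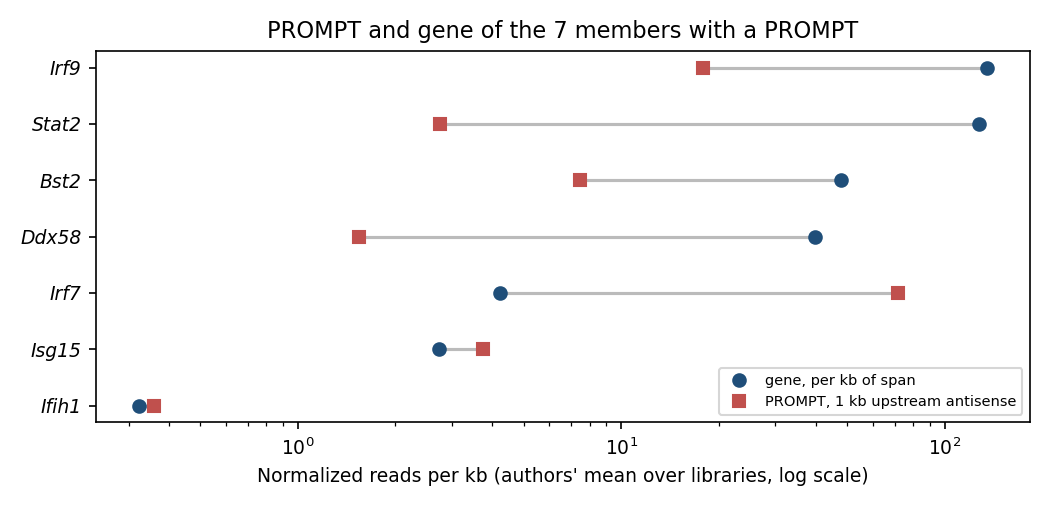
Gene level per kb of span (blue circles) and level of the PROMPT in its 1 kb window (red squares) for the 7 members with a PROMPT, in normalized reads per kb on a log scale, as the authors' means over libraries. The PROMPT of Irf7 lies far to the right of its gene (71.5 against 4.22), those of Isg15 and Ifih1 lie close to theirs, and those of Irf9, Stat2, Bst2 and Ddx58 lie to the left.

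The rest of the pathway was set beside the members by role, from lists of 102 genes of which 100 are in the gene table (Mx1 and Mx2 were not found). Of the 100, 83 (83.0%) had a baseMean of 1 or more, against 80.9% of all genes, and 73.0% had one of 10 or more, against 70.6%. The share with a level was thus close to that of genes in general, and the roles differed among themselves.

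Of the ligands, 1 of 10 reached a baseMean of 1, Ifnk with 2.03 (1.04 per kb). Ifnb1, Ifna1, Ifna2, Ifna4, Ifna5, Ifnl2 and Ifnl3 were listed at 0, while Ifne had a baseMean of 0.151 and Ifng of 0.0216. In contrast, all 9 receptors and Janus kinases had a level, from Il10rb at 3.59 per kb to Ifnar1, a chain of the type I interferon receptor, at 112 per kb. Jak1 had a baseMean of 7595, Tyk2 of 2275 and Ifnar2 of 910 (these 3 were named after their values were seen).

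All 12 sensors had a baseMean of at least 1, with the 10 other than Ddx58 and Ifih1 reaching from 0.403 per kb for Tlr7 to 81.7 for Eif2ak2, the RNA-dependent kinase PKR. Ifih1 was the lowest of the 12 per kb of span, but per kb of exon Tlr9 (0.547) and Tlr3 (1.37) were below it (1.99), and by baseMean Tlr9, Tlr3 and Tlr7 were. Dhx58, the remaining gene of the RIG-I family, had a baseMean of 188, between the members (Dhx58, Tlr3, Tlr7 and Tlr9 were chosen with their values known). Of the adaptors and kinases 9 of 10 had a level, from Ikbke at 12.6 per kb to Trim25, a ubiquitin ligase that acts on RIG-I, at 456, and Mavs, the adaptor shared by Ddx58 and Ifih1, was at 159.

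Of 12 STAT and IRF factors 11 had a level, and per kb of span Irf1 was the highest and Irf4 the lowest of these, at 0.304. Irf3, which acts beside Irf7 at the interferon genes, was at 83.6 per kb. Of 39 effectors 34 had a level, and per kb of span these ran from Ifit1 as the lowest to Ifitm1 at 522. Of the genes related to Ifit1, Ifit2 had a baseMean of 24.8, Ifit3 of 0.355 and Ifit3b of 0.210. Of 8 negative regulators 7 had a level, from Usp18, which removes Isg15 from proteins, at 0.715 per kb to Socs3 at 418 per kb. Mavs, Irf3 and the genes related to Ifit1 were named after their values were seen.

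Beyond the ligands, Myd88, Irf8, Igtp and Trex1 were listed at 0. Genes of the same strand cover 100% of the span of Myd88 (Slc22a14), Irf8 (Gm20388), Trex1 (Atrip) and also Ifnl2 (Samd4b), and 99.2% of that of Igtp (Irgm2) in Gencode vM21. For these 5 genes a value of 0 is given only as listed. Ifnb1, the 4 alpha interferons and Ifnl3 have no such neighbour, but only uniquely aligned reads were kept. Whether this lowered their values, or those of Ifnl2, Ifit3 and Ifit3b, was not tested.

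**Figure D4:**
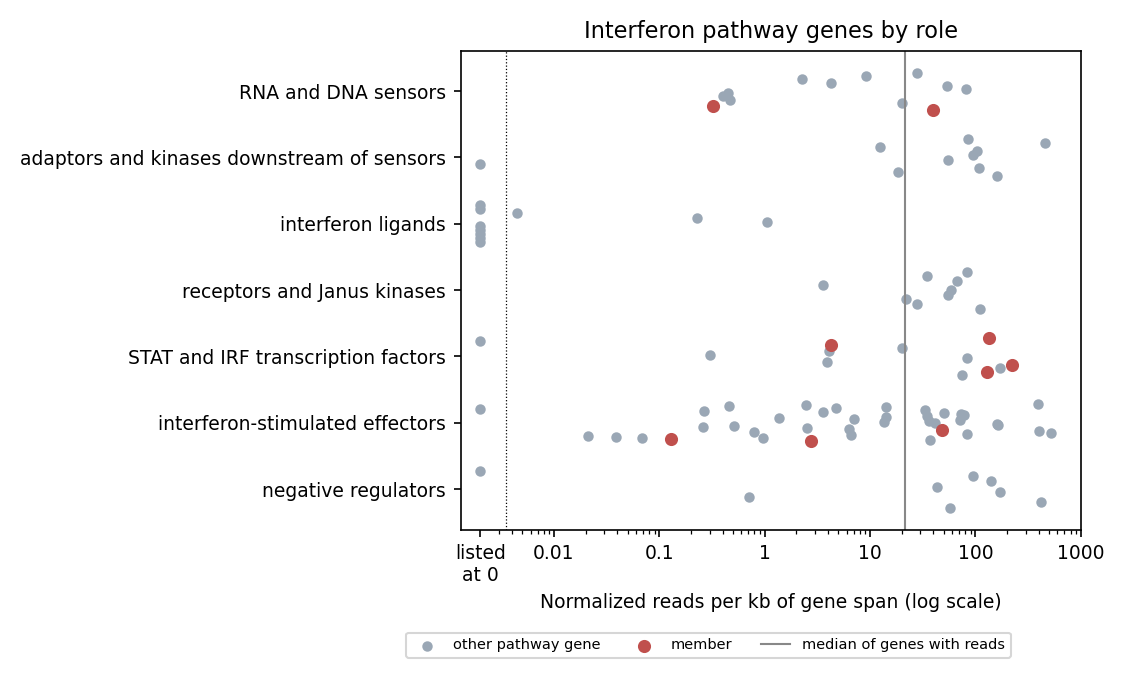
Levels of the 100 pathway genes in normalized reads per kb of gene span (log scale), by role, with the 9 members in red, other genes in grey, genes listed at 0 left of the dotted line and the median of all genes with reads (21.7) as a grey line. Ligands lie at 0 or at levels up to 1.04 per kb, receptors and Janus kinases mostly above the median, and effectors over the whole range.

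The ISRE letters were also counted over these lists. They were found in at least 1 window of 15 of 36 effectors, 5 of 8 sensors and 4 of 10 ligands with a RefSeq promoter. The counts were 0 of 8 receptors and Janus kinases, 1 of 9 adaptors and kinases, 2 of 10 STAT and IRF factors and 1 of 6 negative regulators. Over all promoter windows the share was 3.43%, counted per window and not per gene, and no list was tested against it. The genes counted include the members Isg15, Ifit1, Bst2, Ddx58, Ifih1 and Stat2. The list of effectors was drawn from genes known to respond to interferon, so its count is not independent of the motif. Genes of these lists with the letters ran from some listed at 0, such as Ifna1, to Ifitm3 at 402 per kb of span. Ifitm3 was named after its value was seen, and whether the letters go with level was not tested. Matches per gene were counted for the members only, and of these Isg15 and Ifit1, with 3 and 2, were among those of low level. Bst2, with 2, lay above the median gene per kb of span, but by baseMean it lay above only 40.8% of genes with reads.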

How the data were processed

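For 18 TT-seq libraries, 3 in each of 6 groups, the authors used Trim Galore for trimming, STAR for unique alignment to mm10, featureCounts for counting by strand on Gencode vM25 (the labels name HTSeq) and DESeq2 for normalization. The deposited baseMean is a mean over libraries of these normalized counts, a signal with no value per library. The 4 other value columns in each of the 4 deposited tables hold the authors' own comparison (fold change, its error, p-values) and were not used, so no test was made and no replicate was left out. The tables of eRNAs and DNaseI hypersensitive sites were not used here. Whether counting was over exons or whole genes is not given in the sources used here, so baseMean was divided by the gene span, or by summed exons as an alternative (Gencode vM21, GRCm38). A PROMPT was taken as 1000 bp wide. A level was a baseMean of at least 1. Promoters came from RefSeq. The named genes were the members, the highest and lowest of each pathway list, listed genes at 0 and genes overlapping a member. The level of 1 listed gene is not reported here. The members and lists were chosen with earlier results of these data known. The motif search was tested on simulated data. Python 3.11.15, numpy 2.4.6, pandas 2.3.3 and matplotlib 3.10.9 were used.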

Additional observations from a re-analysis of the deposited data

How the results depend on the processing

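No paired analysis was possible because the values are pooled over libraries and come from no test, and leaving out a replicate was not possible for the same reason. A minimum baseMean of 10 in place of 1 left 2 members with a PROMPT and 0 ligands, and any baseMean above 0 gave 3 ligands. Dividing by exon length in place of span left 1 member whose PROMPT exceeds its gene, raised the members' levels by 1.00 to 6.18 times and changed the rank of 6 of the 9. Ordering by baseMean as deposited changed the rank of 8. Ranking among all listed genes or among those with a baseMean of 1 or more moved percentiles by at most 6.55 and 10.5 points. The choice of length moved some members further. Per kb of exon Irf1 lay above 69.3% and Irf9 above 53.3% of genes with reads, against 89.0% and 78.2% per kb of span. By baseMean as deposited Irf1 lay above 68.4%, Irf9 above 57.8% and Bst2 above 40.8%, the last against 58.8% per kb of span. Rescaling the PROMPT table, chosen after seeing the data, left 2 members whose PROMPT exceeds its gene. With 1 mismatch allowed, 7 members held the ISRE, as did 35.4% of all windows, and with only bases before the start 4 did. With 4 free bases in the GAS the count stayed at 2, but the members were Irf9 and Stat2 in place of Irf1 and Bst2.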
